A study of Homo sapiens with 2 samples.

Results

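The genes described here are the histone genes, which encode the proteins that package DNA into nucleosomes. They were taken from the deposited table by symbol, as every gene whose name began with HIST1H to HIST4H, H2AF or H3F3 or was H1F0, H1FX or H1FNT. The rule found 60 gene entries under 59 symbols, of the 10987 genes in the table. Of these, 53 were clustered HIST genes and 7 were histone variant genes outside the clusters. A pair of entries carried the symbol HIST1H3D, and both were kept.

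RNA sequencing covered untreated THP1 cells and THP1 cells after 24 h of bort, with 1 library for each condition and the concentration of bort not given in the sources used here. THP1 is known as a human cell line of monocytic leukaemia that carries the MLL-AF9 fusion (MF9), and both libraries are labelled as THP1. Bort (bortezomib) inhibits the proteasome, the complex that degrades ubiquitin-marked proteins. The values were FPKM, the number of fragments per kilobase of transcript scaled to all mapped fragments, from RNA selected by its poly-A tail according to the methods of the study, with the library kit named differently there (KAPA) and in the sample labels (TruSeq). With 1 library per condition there is no replicate check on any value, and a difference between the libraries cannot be assigned to bort. The label of a monocytic line was checked against markers, and of 10 monocytic markers 5 were listed, with CD14, CSF1R, FCGR1A, MPO and S100A8 absent and LYZ at 7.61 FPKM in the untreated and 28.7 FPKM in the bort-treated library. LYZ was the highest of the 5 listed in both libraries. ITGAM was at 0.234 FPKM in the untreated and 0.836 FPKM in the bort-treated library, and S100A9 at 0.101 and 0.937 FPKM. By contrast all 12 erythroid markers looked for were in the table. HBG1 was at 1487 FPKM in the untreated and 1536 FPKM in the bort-treated library, and HBG2 at 1069 and 1056 FPKM. GATA1 was at 161 and 48.7 FPKM. In the bort-treated library 5 of the 12 erythroid markers were higher and 7 lower, and 4 of the 5 monocytic markers were higher. ITGAM and S100A9 were below 0.5 FPKM in the untreated library. They entered the table through the bort-treated library alone, so that they could be counted only as higher. AHSP, at 1.99 and 0.4996 FPKM, entered through the untreated library alone and could be counted only as lower. These markers do not match the label of a monocytic line, and the identity of the cells cannot be settled here. The libraries are named by their labels alone, and how these markers bear on the histone genes was not tested.

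Clustered histone genes lie in groups on chromosomes 6 and 1, lack introns as a rule and are transcribed mainly in S phase, when new DNA has to be packaged. Their mRNA is known to end in a short stem-loop in place of a poly-A tail, and the stem-loop binding protein SLBP holds it through processing, translation and decay. Variant, or replacement, histones such as H3.3 and H2A.Z come from single genes with introns and poly-A tails, which are used throughout the cell cycle. H2AFX is known to give both kinds of transcript, and several clustered genes are known to give a longer polyadenylated transcript besides the stem-loop form.

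The stem-loop was read from the transcripts of GENCODE 29 (build GRCh38), as a stem of 6 base pairs closed around a loop of 4 bases. It was found at 18 entries in the form GGCTCTTTTCAGAGCC, at 4 as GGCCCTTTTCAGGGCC, at 3 as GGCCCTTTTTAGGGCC, at 3 as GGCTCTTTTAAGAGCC, and at 1 each in 2 further forms. An example of each form is shown, because the forms divide by family and because H2AFX carries the stem-loop although it is a variant gene. The capitals mark the stem-loop, the lower case letters the 5 bases on each side, and the sequences are written 5′ to 3′ as DNA.
HIST1H2AC: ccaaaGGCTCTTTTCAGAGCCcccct
HIST1H4H: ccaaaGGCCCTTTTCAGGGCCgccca
HIST2H4A: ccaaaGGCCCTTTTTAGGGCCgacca
HIST1H2BD: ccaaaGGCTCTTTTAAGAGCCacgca
HIST1H2AG: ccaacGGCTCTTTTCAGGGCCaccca
H2AFX: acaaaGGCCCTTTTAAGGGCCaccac

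The stem-loop of HIST1H2AC lay at chr6:26124669-26124684 (plus strand). That of HIST1H4H was at chr6:26285131-26285146 (minus strand), and that of HIST2H4A at chr1:149833032-149833047 (plus strand). For HIST1H2BD the position was chr6:26158587-26158602 (plus strand), for HIST1H2AG chr6:27133515-27133530 (plus strand) and for H2AFX chr11:119094898-119094913 (minus strand). The first form was carried by genes of H2A, H2B and H3, the forms of HIST1H4H and HIST2H4A by H4 genes, the form of HIST1H2BD by 3 H2B genes and the last by H2AFX. HIST1H2AG had a form of its own, with a G-U pair in the stem. No stem-loop was found in the transcripts of H2AFZ, H2AFV, H2AFY, H3F3A, H3F3B or H1FX. Among 10875 other genes of the table with a transcript in GENCODE 29, 7 (0.0644%) held such a structure in their longest transcript. For the histone genes every transcript was searched, so the share of other genes is a lower bound beside them.

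In the bort-treated library 12 of the 60 entries were lower than in the untreated library by 2-fold or more on the log2(FPKM + 1) scale, and 1 was higher. The same thresholds were passed by 10.2% of all 10987 genes downwards and by 8.08% upwards. By direction alone 42 entries were lower and 18 higher, with a median log2 fold change of -0.45, where 49.7% of all genes were lower and their median was 0.0049. HIST1H1B, HIST1H2AB, HIST2H2AB, HIST1H2BE, HIST2H2BF and HIST1H4A were below 0.5 FPKM in the bort-treated library and entered the table through the untreated library alone, so that they could be counted only as lower. No listed histone gene entered through the bort-treated library alone. With at least 1 FPKM required in both libraries, 26 clustered genes were lower and 17 higher, and over all genes 4595 were lower and 4544 higher. Summed over the 60 entries, FPKM was 2571 in the untreated and 1170 in the bort-treated library. Both classes contributed to the lower sum. Of 53 clustered genes 11 were lower and 1 was higher by 2-fold or more, with a median log2 fold change of -0.43. Of 7 variant genes 1 was lower and none higher, with a median of -0.87. The clustered median was thus 0.44 above the variant median, a description of these libraries with no test, since the genes of a class share the same pair of libraries. After the trend of fold change with transcript GC content was removed, the clustered median was -0.06 and the variant median -0.62. In RNA from whole cultures, fewer cells in S phase and less histone RNA per cell cannot be told apart.

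**Figure D1:**
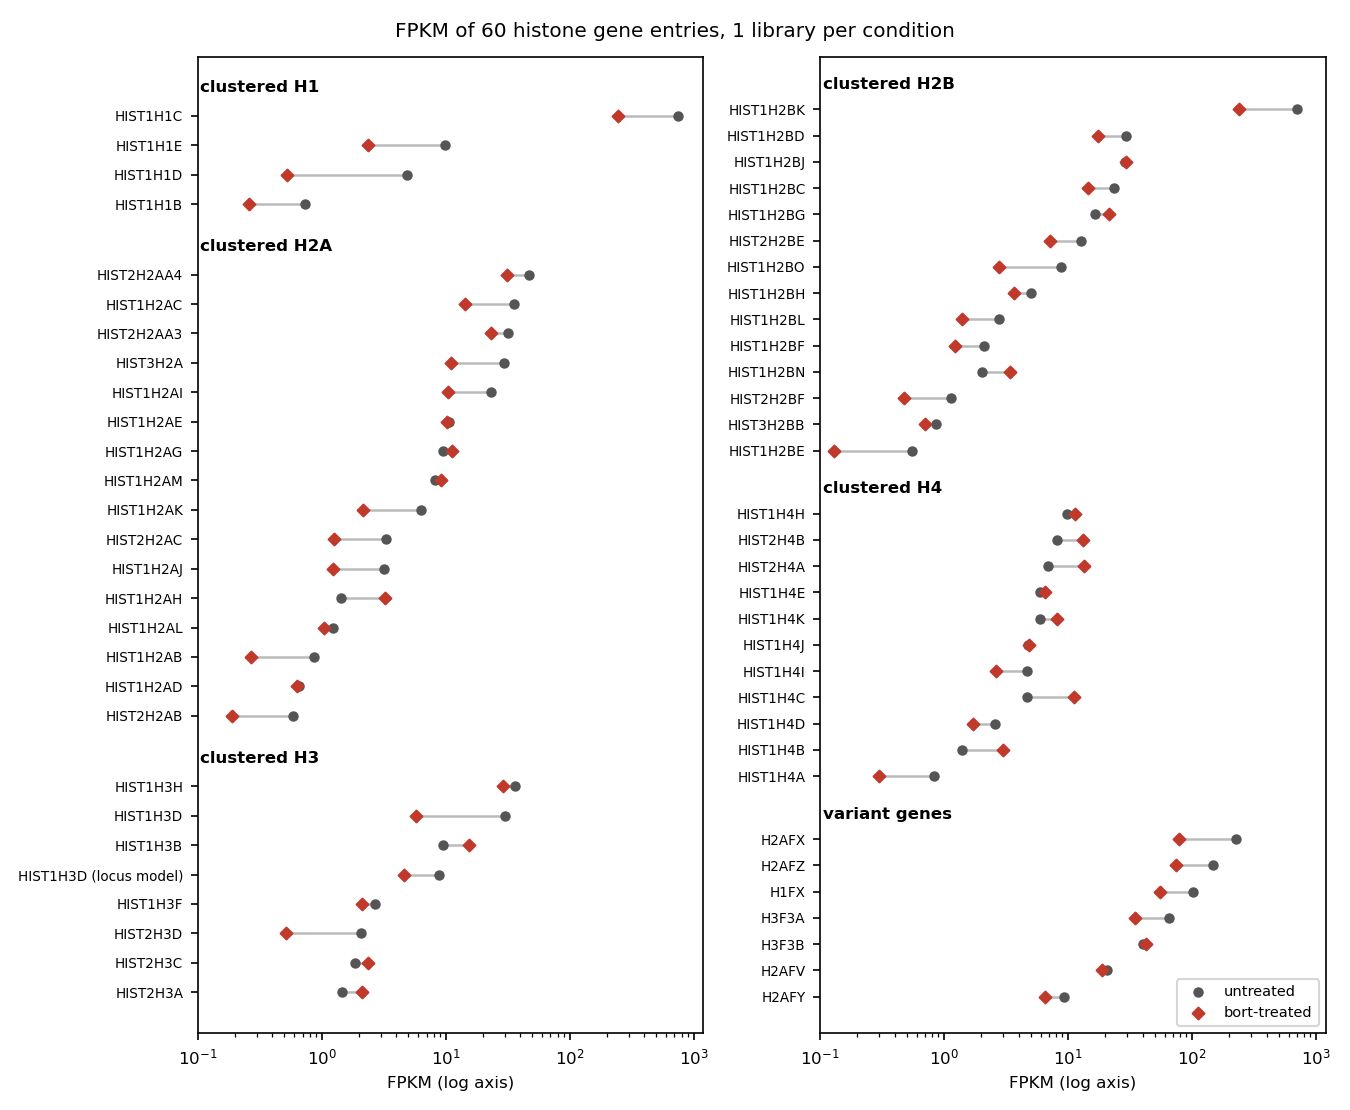
FPKM on a log axis of the 60 histone gene entries by family, with grey circles for the untreated and red diamonds for the bort-treated library and a line joining the pair for each gene. HIST1H1C and HIST1H2BK are the highest entries in both libraries, and the H4 genes lie between 0.299 and 13.5 FPKM.

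The linker histones, the H1 proteins, bind the DNA where it enters and leaves the nucleosome. HIST1H1C, the most abundant histone transcript of both libraries, was at 743 FPKM in the untreated and 245 FPKM in the bort-treated library, a log2 fold change of -1.59. It is listed as ENSG00000187837.3_2 and lies on the minus strand at chr6:26055787-26056428 in GRCh38. In the order of FPKM over the whole table it stood at place 15 in the untreated and place 98 in the bort-treated library. The other linker genes were far lower in level and also lower in the bort-treated library. HIST1H1E was at 9.85 and 2.34 FPKM, a log2 fold change of -1.70. HIST1H1D was at 4.91 and 0.524 FPKM, a log2 fold change of -1.95 that became -3.23 without the pseudocount of 1 FPKM. HIST1H1B was at 0.735 and 0.259 FPKM, below the range in which this scale shows changes in full. HIST1H1B was listed through the untreated library alone, which fixed its direction. HIST1H1C, HIST1H1D and HIST1H1E were each lower by 2-fold or more, and with at least 1 FPKM in both libraries HIST1H1C and HIST1H1E remained. The family median was -1.65, and -1.26 with the GC trend removed, and HIST1H1C alone made up 98.0% and 98.7% of the summed H1 FPKM.

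H2A pairs with H2B in the nucleosome core, and its 16 clustered genes summed to 213 FPKM in the untreated and 131 FPKM in the bort-treated library. The threshold of 2-fold was passed downwards by 4 genes (25%) and upwards by none, beside 10.2% and 8.08% of all genes. The family median was -0.49. HIST3H2A, from the small cluster on chromosome 1, was at 29.8 and 11.1 FPKM, a log2 fold change of -1.35. HIST1H2AC was at 35.6 and 14.3 FPKM, a log2 fold change of -1.25. HIST1H2AK was at 6.29 and 2.16 FPKM, a log2 fold change of -1.21. The fourth, HIST1H2AI, has 62.3% of its 50-base windows in common with other genes, most of all HIST1H2AJ, so that its value is uncertain. It was at 23.0 and 10.4 FPKM, a log2 fold change of -1.08 that was -0.98 with upper quartile scaling. The highest H2A genes by level were the near-identical pair HIST2H2AA4 and HIST2H2AA3, every window of which is shared. HIST2H2AA4 was at 47.4 and 31.3 FPKM, and HIST2H2AA3 at 31.7 and 23.3 FPKM, log2 fold changes of -0.58 and -0.43. With the GC trend removed these were -0.08 and 0.07. The family median moved to -0.01 under that setting, and HIST1H2AC was then the only H2A gene past 2-fold downwards, with 1 H2A gene past it upwards. The other end of the H2A genes was HIST1H2AH at 1.43 and 3.22 FPKM, a gene chosen for mention after its values were seen.

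Among 14 clustered H2B genes a single transcript set the total. HIST1H2BK, listed as ENSG00000197903.7_2 at chr6:27146418-27146798 on the minus strand in GRCh38, was at 705 FPKM in the untreated and 239 FPKM in the bort-treated library. Its log2 fold change was -1.56, close to that of HIST1H1C. It held 84.0% of summed H2B FPKM in the untreated and 69.8% in the bort-treated library. Of its 50-base windows 74.1% are shared with another gene, mainly H2BFS, so fragments of either could have been counted here. The rest of the family was lower in level. HIST1H2BO was at 8.83 and 2.80 FPKM, a log2 fold change of -1.37. HIST1H2BD was at 29.5 and 17.6 FPKM, a log2 fold change of -0.72. HIST1H2BJ, the neighbour of the latter in level, was at 28.8 and 29.2 FPKM, a log2 fold change of 0.02. HIST1H2BG was at 16.3 and 21.2 FPKM, a log2 fold change of 0.35. Across the family 2 genes (14.3%) passed 2-fold downwards and none upwards, beside 10.2% and 8.08% of all genes. By sign 11 were lower (78.6%, where 49.7% of all genes were lower), and 8 of 11 with at least 1 FPKM in both libraries. The median was -0.51, or -0.48 without HIST1H2BK.

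H3 and H4 form the tetramer at the centre of the nucleosome. Of 8 clustered H3 entries 2 were past 2-fold downwards (25%, beside 10.2% of all genes), and the median was -0.28. By sign 5 were lower (62.5%, where 49.7% of all genes were lower) and 3 higher. After removal of the GC trend 4 were lower and 4 higher, with a median of -0.03. HIST1H3D was at 30.1 FPKM in the untreated and 5.73 FPKM in the bort-treated library, a log2 fold change of -2.21. This entry, ENSG00000197409.7_3 at chr6:26196840-26197250, lies within a longer gene model of the same strand at chr6:26195595-26199293, which the table lists under the same symbol. The longer entry was at 8.82 and 4.63 FPKM, a log2 fold change of -0.80. Every window of the shorter entry lies within the longer model, so the division of fragments between the pair is uncertain. HIST2H3D was at 2.07 and 0.513 FPKM, a log2 fold change of -1.02 that was -0.97 with upper quartile scaling and -0.26 with the GC trend removed. It shares 80.4% of its windows, mainly with HIST2H3DP1. The highest H3 gene, HIST1H3H, was at 36.1 and 28.96 FPKM, a log2 fold change of -0.31. HIST1H3B was at 9.50 and 15.3 FPKM, a log2 fold change of 0.63 that became 1.03 with the GC trend removed.

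Of 11 clustered H4 genes 8 were higher and 3 lower in the bort-treated library, among the latter HIST1H4A, whose direction was fixed by its listing. The family median was 0.19 and was above 0 under each of the settings tried, from 0.11 without genes of shared sequence to 0.54 with the GC trend removed. Without genes of shared sequence 4 were higher and 3 lower. The genes left out there, HIST2H4A, HIST2H4B, HIST1H4J and HIST1H4K, were all higher, and the division of fragments among them is uncertain. The sum over the family was 55.6 FPKM in the untreated and 76.3 FPKM in the bort-treated library. HIST1H4C, which encodes the same protein as the other H4 genes, was the sole histone gene past 2-fold upwards on this scale. It was at 4.63 and 11.2 FPKM, a log2 fold change of 1.12. HIST2H4A was at 6.85 and 13.5 FPKM, and its copy HIST2H4B, with which every window is shared, at 8.21 and 13.3 FPKM. Their log2 fold changes were 0.88 and 0.64. HIST1H4H, the highest in the untreated library, was at 9.75 and 11.3 FPKM, a log2 fold change of 0.19. The lower members were HIST1H4I, HIST1H4A and HIST1H4D, named after their values were seen, with log2 fold changes of -0.65, -0.49 and -0.38. The H4 genes were thus spread over both directions, and the share of 1 gene past 2-fold in 11 (9.09%) is near the 8.08% of all genes.

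**Figure D2:**
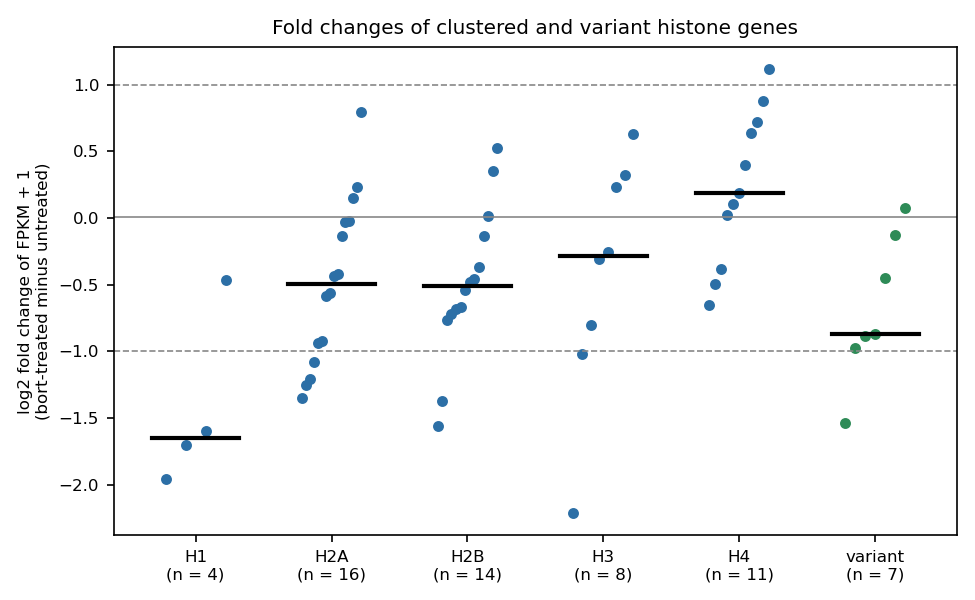
Log2 fold change of FPKM + 1, bort-treated minus untreated, for each clustered gene by family (blue) and for the variant genes (green), with a black bar at the median of the group and dashed lines at 2-fold. The medians run from -1.65 for H1 to 0.19 for H4, and the variant median is -0.87.

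The composition of clustered histone RNA differed between the libraries. HIST1H1C and HIST1H2BK together held 73.9% of the summed clustered FPKM in the untreated and 56.3% in the bort-treated library. Without this pair the clustered sum was 511 and 375 FPKM, and the median log2 fold change of the remaining 51 genes was -0.42. That median is the value of HIST2H2AB, which was listed through the untreated library alone and could be counted only as lower. The share of H1 genes was 38.7% and 28.9%, and that of H2B genes 42.9% and 39.8%. Both families with a dominant transcript thus held less of the total in the bort-treated library. The share of H2A genes was 10.9% and 15.3%, and that of H3 genes 4.73% and 7.17%. H4 genes held 2.84% of the sum in the untreated and 8.88% in the bort-treated library. The ratio of H4 to H1 sums was 0.0733 and 0.307. These shares compare levels per kilobase of each gene model, and they depend on the lengths of models that differ widely between genes, so that they are not shares of histone protein or of mRNA molecules.

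**Figure D3:**
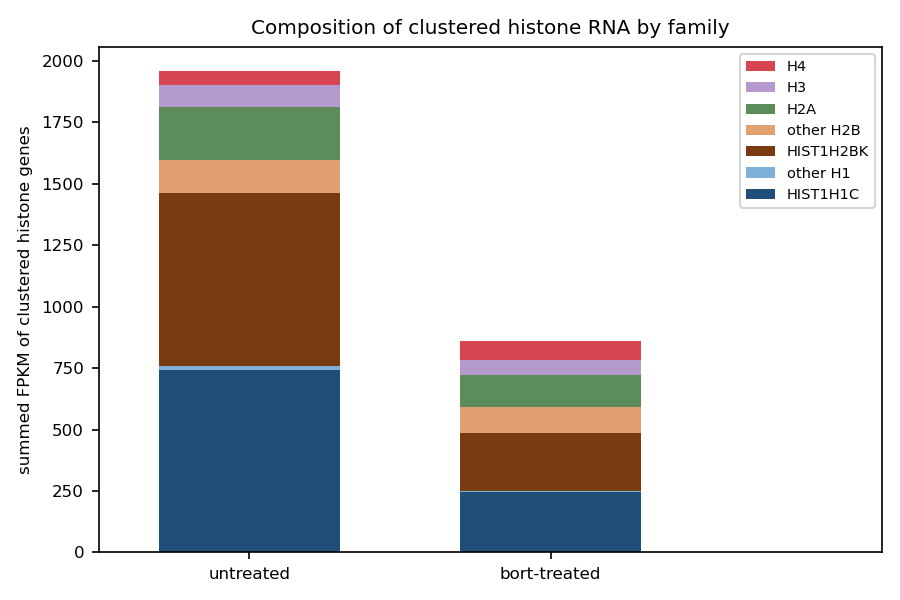
Summed FPKM of the 53 clustered histone genes in each library, as stacked bars divided by family, with HIST1H1C and HIST1H2BK drawn apart from the rest of H1 and H2B. The bar is 1959 FPKM high in the untreated and 860 FPKM in the bort-treated library, and the pair of dark segments accounts for most of the difference.

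By place in the genome, the 40 genes of the HIST1 cluster on chromosome 6 had a median log2 fold change of -0.42. The 11 genes of HIST2 on chromosome 1 had a median of -0.43, and the pair of listed HIST3 genes, also on chromosome 1, a median of -0.74. By level, the median was -0.43 for 19 clustered genes with a mean of at least 10 FPKM and -0.44 for 34 below. Over all genes of the table the same split gave -0.15 and 0.09. The 34 hold every clustered gene listed through the untreated library alone, and such genes could be counted only as lower. The median of the 34 lies between the values of HIST1H2BE (-0.46) and HIST2H2AB (-0.42), which were listed in that way. HIST1 and HIST2 each hold some of these genes. The clustered genes were also divided by sequence shared with other genes. Of those with under 50% of their 50-base windows shared, 38 in all, 7 (18.4%) were lower and 1 (2.63%) higher by 2-fold or more. The shares of all genes were 10.2% and 8.08%. The median of the 38 was -0.46, and they hold every clustered gene listed through the untreated library alone. The 15 genes with 50% or more shared included 4 (26.7%) past 2-fold downwards and none upwards, and had a median of -0.02.

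The gene models also differ in whether they reach past the stem-loop, which bears on which fragments were counted, if the annotation of the authors is built alike. In GENCODE 29, 21 clustered genes have a model of coding length without the stem-loop, among them HIST1H1C, HIST1H2BK and HIST1H3D, and their median log2 fold change was -0.49. Another 21 have a stem-loop with 100 or more bases annotated beyond it, as a polyadenylated transcript would have, with a median of -0.31. In 8 the model ends within 100 bases after the stem-loop, with a median of -0.51. In the remaining 3, HIST1H1E, HIST1H2BJ and HIST1H4C, the model is longer than the coding sequence and no stem-loop was found. HIST1H1B, HIST1H2AB, HIST2H2AB and HIST1H4A, of coding length, were listed through the untreated library alone, which fixed their direction as lower. So were HIST1H2BE and HIST2H2BF, of the longer kind. The median of the genes of coding length is the value of HIST1H4A. Past 2-fold downwards were 7 of the 21 genes of coding length (33.3%), 2 of the 21 longer ones (9.52%) and 10.2% of all genes. GC content ran from 54.4% to 67.4% in the models of coding length and from 39.5% to 61.2% in the longer ones. With the GC trend removed HIST1H2AK, HIST1H2BO and HIST2H3D of the former and HIST3H2A of the latter fell short of 2-fold. The part of GC content in this contrast was not tested. H2B is the family with the most genes of the longer kind. Its 9 such genes had a median of -0.46, the value of HIST1H2BE, and none was past 2-fold. Within H2A, 3 such genes had a median of -1.25, and 2 were past 2-fold downwards. Within H3, 4 such genes had a median of -0.04 and none was past 2-fold. Within H4, 5 such genes had a median of 0.19 and none was past 2-fold. Of the genes of coding length, 1 of 9 in H2A and 2 of 2 in H2B were past 2-fold downwards. In H3 this was 2 of 4, in H4 0 of 3 and in H1 2 of 3. Clustered histone RNA seen after poly-A selection could be polyadenylated transcript or carried-over stem-loop transcript, and which of these was counted was not tested.

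The variant genes had a median level of 64.8 FPKM in the untreated library, where the clustered genes had 5.90 FPKM. H2AFX, which encodes the H2A form that is phosphorylated at DNA breaks, was at 228 FPKM in the untreated and 78.0 FPKM in the bort-treated library. Its log2 fold change of -1.53 was the only one past 2-fold among the variants, and it is also the variant with a stem-loop. With the GC trend removed it was -0.82, short of 2-fold, the transcript having a GC content of 66.4%. Without H2AFX the variant median was -0.66. H2A.Z is placed at promoters and comes from the genes H2AFZ and H2AFV. H2AFZ was at 147 and 74.5 FPKM, a log2 fold change of -0.97. H2AFV was at 20.7 and 18.9 FPKM, a log2 fold change of -0.12. Per kilobase H2AFZ exceeded H2AFV by 7.12 times in the untreated and 3.94 times in the bort-treated library.

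H3.3 replaces H3 outside S phase at active genes and near telomeres, and its protein is encoded identically by H3F3A and H3F3B. H3F3A was at 64.8 FPKM in the untreated and 34.8 FPKM in the bort-treated library, a log2 fold change of -0.88. With the GC trend removed it was -1.23, past 2-fold. H3F3B was at 40.5 and 42.8 FPKM, a log2 fold change of 0.08. The order of the pair was therefore reversed, with a ratio of H3F3A to H3F3B of 1.602 in the untreated and 0.812 in the bort-treated library. The pair summed to 105 and 77.6 FPKM. Set against the summed clustered H3 genes this was a ratio of 1.14 and 1.26. The linker variant H1FX was at 101 and 55.0 FPKM, a log2 fold change of -0.87 that was -0.05 with the GC trend removed, its transcript having a GC content of 68.6%. H2AFY, which encodes the large H2A variant macroH2A, was at 9.29 and 6.55 FPKM, a log2 fold change of -0.45. Apart from H2AFX, then, no variant passed 2-fold as reported, and H3F3B was the only variant with a higher value in the bort-treated library.

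Not every histone gene of the rule was listed. GENCODE 29 holds 86 protein-coding symbols of this rule, and 59 of them were in the table. Each gene of the table reached at least 0.501 FPKM in 1 library, so that genes below about 0.5 FPKM in both appear to have been left out by the authors, and nothing is said here of the 27 symbols not listed. These were the variants H1F0, H1FNT, H2AFB1, H2AFB2, H2AFB3, H2AFJ, H2AFY2 and H3F3C. From the clusters they were HIST1H1A, HIST1H1T, HIST1H2AA, HIST1H2BA, HIST1H2BB, HIST1H2BI, HIST1H2BM, HIST1H3A, HIST1H3C, HIST1H3E, HIST1H3G, HIST1H3I, HIST1H3J, HIST1H4F, HIST1H4G, HIST1H4L, HIST2H3PS2, HIST3H3 and HIST4H4. Of the listed clustered genes 7 were under 1 FPKM in both libraries. No listed histone gene was at 0, and the lowest value was 0.130 FPKM. Read depth is not known from FPKM, so no counting error or detection limit can be attached to these values.

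Promoters are shown for HIST1H1C and HIST1H2BK, the most abundant transcripts of their families, and for HIST2H4A, a member of the H4 family, whose median was above 0. The sequences are from RefSeq in build GRCh38.p14 and cover the 250 bases before the annotated start, 5′ to 3′ on the strand of the gene. The capitals mark matches on either strand to the letters CCAAT, known as a box bound by the factor NF-Y. They also mark a TATA box spelled as TATAAA. The octamer searched was ATTTGCAT and the H1 box was AAACACA, and matches may overlap. The H1 box was added to the search after the values of the H1 genes were seen.
HIST1H1C: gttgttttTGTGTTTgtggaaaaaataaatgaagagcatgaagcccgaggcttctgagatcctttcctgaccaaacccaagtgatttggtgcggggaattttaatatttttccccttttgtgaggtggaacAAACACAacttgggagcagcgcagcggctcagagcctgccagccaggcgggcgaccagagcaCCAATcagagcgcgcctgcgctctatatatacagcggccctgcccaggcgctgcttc
HIST1H2BK: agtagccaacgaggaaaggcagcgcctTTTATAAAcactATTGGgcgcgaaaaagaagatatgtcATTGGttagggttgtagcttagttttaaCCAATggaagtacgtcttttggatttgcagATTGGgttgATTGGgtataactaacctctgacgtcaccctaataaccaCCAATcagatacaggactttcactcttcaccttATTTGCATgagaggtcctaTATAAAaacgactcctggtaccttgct
HIST2H4A: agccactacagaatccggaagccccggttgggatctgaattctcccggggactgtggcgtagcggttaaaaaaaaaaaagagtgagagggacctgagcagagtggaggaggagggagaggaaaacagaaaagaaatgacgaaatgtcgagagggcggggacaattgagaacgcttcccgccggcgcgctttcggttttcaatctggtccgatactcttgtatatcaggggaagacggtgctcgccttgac

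The promoter of HIST1H1C lies at chr6:26056471-26056720 (minus strand), that of HIST1H2BK at chr6:27146859-27147108 (minus strand) and that of HIST2H4A at chr1:149832407-149832656 (plus strand). RefSeq, which uses newer symbols for these genes, gave a promoter for 56 of the 59 symbols and none for HIST1H2AH, HIST1H4A and HIST1H4C. In windows of 300 bases, from 250 before to 50 after the start, the CCAAT box occurred in all 4 H1, all 15 H2A, all 14 H2B and all 7 H3 promoters. It occurred in 1 of 9 H4 promoters, that of HIST1H4I, and in 34.6% of 35116 promoters of all genes. The families also differed in the octamer, the site of the POU2F1 factor known as OCT1, which was in 10 of 15 H2A and 10 of 14 H2B promoters, 1 of 7 H3 promoters and no H4 or H1 promoter, against 1.77% of all promoters. The single H3 match was at HIST1H3D, for which RefSeq gives the same window, chr6:26199244-26199543, as for HIST1H2AD, so that it repeats an H2A promoter. Several H2A and H2B genes lie head to head with overlapping windows, such as HIST1H2AC (chr6:26123922-26124221) and HIST1H2BC (chr6:26123877-26124176). Any motif match in such an overlap was counted for both genes, so the H2A and H2B counts are not independent. The H1 box was in all 4 H1 promoters, 2 of 7 H3 promoters (HIST2H3A and HIST2H3C), 1 of 15 H2A promoters (HIST2H2AC) and no H2B or H4 promoter, and in 5.64% of all promoters. TATAAA was in 32 of 49 clustered promoters (65.3%), in 4 of 7 variant promoters and in 11.5% of all promoters. A match describes the letters of the window, and binding of a factor was not measured.

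Genes that make and process histone RNA were examined by a list of 27, all of which were in the table. Of these 4 were lower and 2 higher by 2-fold or more (14.8% and 7.41%), beside 10.2% and 8.08% of all genes. The list median was -0.04, and it was above 0 with upper quartile scaling (0.06) and with scaling to the total without the 20 highest genes (0.07). NPAT, the coactivator that cyclin E and CDK2 switch on at histone promoters, was at 2.48 FPKM in the untreated and 6.59 FPKM in the bort-treated library, a log2 fold change of 1.12. CASP8AP2, which encodes the FLASH protein of the histone locus body, was at 4.41 and 7.04 FPKM, a log2 fold change of 0.57. SLBP was at 58.3 and 30.5 FPKM, a log2 fold change of -0.91. The coactivator thus had a higher and the stem-loop binding protein a lower value in the bort-treated library, and NPAT was 0.63 with the GC trend removed.

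U7 small nuclear RNA guides the cut after the stem-loop, in a particle with the ring proteins of LSM10 and LSM11. LSM10 was at 39.9 and 36.8 FPKM, a log2 fold change of -0.12. LSM11 was at 2.25 and 2.16 FPKM, a log2 fold change of -0.04. ZNF473, the zinc finger protein that binds this particle to the stem-loop, was at 4.60 and 7.36 FPKM, a log2 fold change of 0.58. LSM10 and LSM11 took the other sign under 1 or more of the settings, and no gene particular to the U7 particle passed 2-fold. Besides NPAT, 5 genes of the list were past 2-fold, 3 of them from the ring of LSM proteins that acts in RNA decay and splicing. LSM3 was at 18.2 and 41.6 FPKM, a log2 fold change of 1.15. LSM4 was at 96.5 and 35.5 FPKM, a log2 fold change of -1.42. LSM2 was at 127 and 60.3 FPKM, a log2 fold change of -1.06. SRRT, which encodes the cap-associated protein ARS2, and CSTF2, a subunit of the cleavage stimulation factor, were the other two. SRRT was at 65.8 and 31.5 FPKM and CSTF2 at 43.3 and 20.7 FPKM, log2 fold changes of -1.04 and -1.03. LSM2, SRRT and CSTF2 were short of 2-fold with upper quartile scaling, at -0.95, -0.93 and -0.92.

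**Figure D4:**
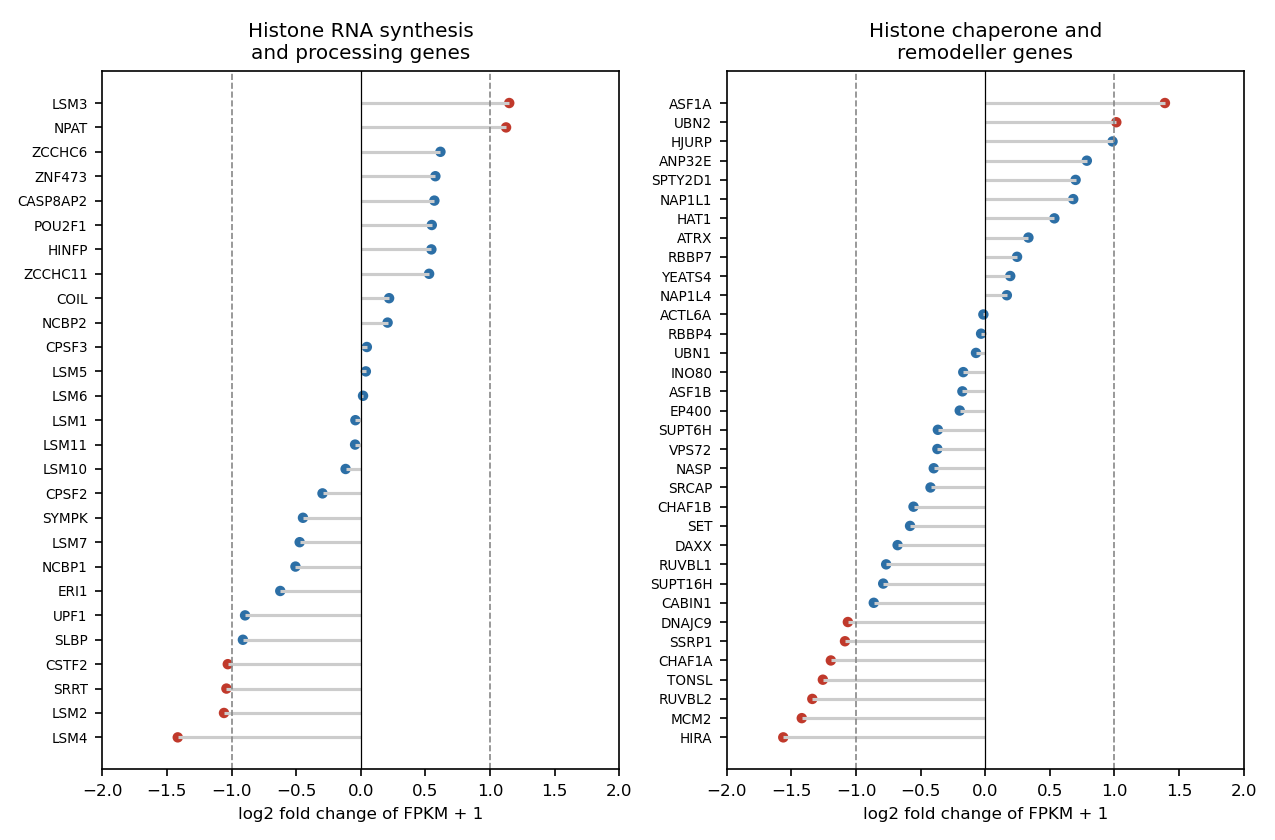
Log2 fold change of FPKM + 1, bort-treated minus untreated, for 27 genes of histone RNA synthesis and processing (left) and 34 histone chaperone and remodeller genes (right), with red points past 2-fold, blue points within it and dashed lines at 2-fold. HIRA at -1.56 and ASF1A at 1.39 are the ends of the right panel.

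Histone chaperones hand histones from the cytoplasm to DNA, and all 34 genes of a list of chaperones and remodellers were in the table. Of these 7 were lower and 2 higher by 2-fold or more (20.6% and 5.88%), beside 10.2% and 8.08% of all genes. Among all genes with a mean of 10 FPKM or more the shares were 15.5% and 7.91%. The list median was -0.28. HIRA, which deposits H3.3 outside replication, was at 76.5 FPKM in the untreated and 25.2 FPKM in the bort-treated library, a log2 fold change of -1.56. UBN2, from the same complex, was at 1.46 and 3.97 FPKM, a log2 fold change of 1.01 that was 0.64 with the GC trend removed. DAXX and ATRX place H3.3 near telomeres. DAXX was at 30.9 and 19.0 FPKM, a log2 fold change of -0.68. ATRX was at 1.81 and 2.55 FPKM, a log2 fold change of 0.33 that was -0.18 with the GC trend removed. The genes of H3.3 deposition were therefore not uniform in direction.

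ASF1A and ASF1B pass H3 and H4 dimers to the depositing complexes. ASF1A was at 12.2 and 33.7 FPKM, a log2 fold change of 1.39, and 0.80 with the GC trend removed. ASF1B was at 25.97 and 22.9 FPKM, a log2 fold change of -0.18, and 0.20 with the GC trend removed. CAF-1 loads new H3 and H4 behind the replication fork, and its large subunit gene CHAF1A was at 58.7 and 25.1 FPKM, a log2 fold change of -1.20. CHAF1B was at 19.1 and 12.7 FPKM, a log2 fold change of -0.56. NASP, which keeps a soluble store of H3 and H4, was at 69.0 and 52.1 FPKM, a log2 fold change of -0.40. Of the chaperones for replication, CHAF1A was past 2-fold downwards, though at -0.84 with the GC trend removed. MCM2, a helicase subunit that also holds H3 and H4, was at 46.5 and 16.7 FPKM, a log2 fold change of -1.42. TONSL, which reads new H4 behind the fork, was at 35.2 and 14.1 FPKM, a log2 fold change of -1.26. SSRP1, a subunit of the FACT complex for H2A and H2B, was at 144 and 67.4 FPKM, a log2 fold change of -1.09. These were joined by RUVBL2, a subunit of remodellers that exchange H2A.Z, and DNAJC9, a heat shock cochaperone that binds H3 and H4. RUVBL2 was at 116 and 45.4 FPKM and DNAJC9 at 37.1 and 17.2 FPKM, log2 fold changes of -1.34 and -1.06. With the GC trend removed TONSL was -0.68, SSRP1 -0.94 and RUVBL2 -0.91, and with upper quartile scaling SSRP1 was -0.98 and DNAJC9 -0.96, each short of 2-fold.

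S phase and replication genes are transcribed around the same stage of the cell cycle as clustered histone genes, and a list of 25, all in the table, was set beside it. Of these 5 (20%) were lower and none higher by 2-fold or more, 22 (88%) were lower in sign, and the median was -0.64. Over all genes 10.2% were lower and 8.08% higher by 2-fold or more, 49.7% were lower in sign and the median was 0.0049. Among all genes with a mean of 10 FPKM or more 15.5% were lower by 2-fold or more, 57.7% were lower in sign and the median was -0.15. Summed FPKM of the S phase list was 1424 in the untreated and 845 in the bort-treated library. The clustered histone genes had a median of -0.43 beside it, and their H4 members a median above 0. The part that a change in S phase cells has in the histone values was not tested.

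**Figure D5:**
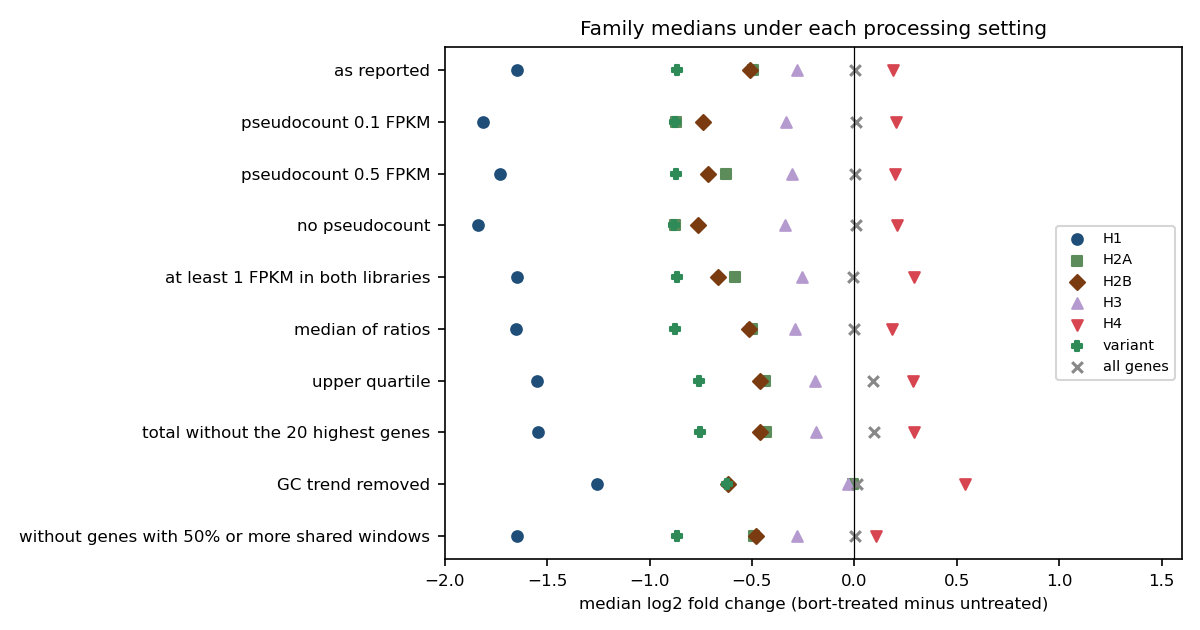
Median log2 fold change of each histone family, of the variants and of all genes (crosses) under each way of processing the FPKM values, as named on the vertical axis. The H1 median lies between -1.84 and -1.26 and the H4 median is above 0 in each setting, while the H2A and H3 medians are near 0 once the GC trend is removed.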

How the data were processed

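RNA sequencing of 2 libraries was analysed, 1 of THP1 treated with bort for 24 h and 1 of untreated THP1, grouped by their labels. Trimmed reads had been aligned by the authors in HISAT2 2.0.4, and StringTie 1.2.3 supplied the deposited gene values, which are in FPKM and so already scaled to library depth. The submitters' processing notes name GRCh37, and the annotation is not given in the sources used here. Depth is unknown, so no counting error is given. The histone genes and gene lists were chosen with earlier results of these data known. Log2 fold changes are differences of log2(FPKM + 1), a scale that understates the changes of low genes, and 2-fold was the threshold. No p-value was computed. Named are all listed variants, clustered genes past 2-fold and the 3 highest of each clustered family in either library. Of the related lists those past 2-fold are named, with SLBP, NPAT, CASP8AP2, LSM10, LSM11, ZNF473, NASP, ASF1A, ASF1B, CHAF1A, CHAF1B, HIRA, DAXX and ATRX.

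Transcripts of GENCODE 29 (GRCh38) gave length, GC content, shared windows and stem-loops, matched by identifier for 56 entries and by symbol for 4. Of all genes, 10935 (99.5%) were matched. The GC trend was removed by lowess with a span of 0.3. Alternatives were pseudocounts, a filter, 3 scalings, GC, the threshold and, added after seeing the data, leaving out genes of shared sequence. Protein sequences, planned for the variants, were not analysed here. The calculations were tested on simulated data. Python 3.11.15, numpy 2.4.6, pandas 2.3.3, statsmodels 0.14.6 and matplotlib 3.10.9 were used.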

Additional observations from a re-analysis of the deposited data

How the results depend on the processing

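No paired analysis was possible because untreated and bort-treated THP1 had 1 library apiece, which also meant that neither could be left out. The clustered median lay between -0.60 and -0.06 and the variant median between -0.88 and -0.62 over the alternatives, and the clustered median remained above the variant median by 0.28 to 0.57. The 12 histone genes lower and 1 higher by 2-fold became 20 and 3 with a pseudocount of 0.1 FPKM, 21 and 3 with none, 7 and 4 after removal of the GC trend, 23 and 6 at a threshold of 1.5-fold, and 1 and 0 at 4-fold. Over all genes, 1125 lower and 888 higher became 1708 and 1654 with no pseudocount, 2378 and 2282 at 1.5-fold, and 135 and 92 at 4-fold. A pseudocount of 0.1 FPKM gave 1576 higher. With the GC trend removed 684 were lower and 772 higher, with upper quartile scaling 939 and 1086, and without the 20 highest genes 931 and 1100. The last 2 scalings raised the median of all genes to 0.09 and 0.10 and that of the RNA synthesis and processing list to 0.062 and 0.066, from below 0. Of 28 named genes past 2-fold, 17 fell short of it in at least 1 alternative and none took the other sign. Among them with the GC trend removed were H2AFX (-0.82), HIST1H2AI (-0.66), HIST1H2AK (-0.66), HIST1H2BO (-0.97), HIST3H2A (-0.99) and HIST2H3D (-0.26). For settings where counts moved, the cause was not tested beyond the pseudocount and threshold themselves. Depth is unknown, so its limit on low genes cannot be given.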
